A study of Mus musculus with 4 samples.

Results

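Annexins and galectins are the subject here: the 6 annexin genes Anxa1, Anxa2, Anxa4, Anxa5, Anxa6 and Anxa7 and the 2 galectin genes Lgals1 and Lgals3, which are 8 of the 42977 rows of the deposited gene table, chosen by gene symbol. All 8 passed the filter on low counts and were tested among 33480 genes. RNA was sequenced from exosomes, small membrane vesicles collected from the medium of cultured bone marrow mesenchymal stem cells (MSCs) of male SD rats aged 6 to 8 weeks. Exosomes of cells that received DMSO, the solvent, make up MSC-Exo (2 libraries), and exosomes of cells that received 1 µmol/L atorvastatin (ATV), a statin that inhibits HMG-CoA reductase, make up MSCATV-Exo (2 libraries). All cells were primary cultures at passages 3 to 4, kept in exosome-free medium in 10 dishes before collection, and the labels give no genotype. The labels give the exposure as 24 h in one place and 48 h in another, register the samples under mouse although cells, build and gene names are of rat, and name no separate animals or cultures, so the SDs and p-values measure only the spread between these libraries, which may be technical.

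Annexins are cytosolic proteins that bind acidic phospholipids, above all phosphatidylserine, when calcium is present, and they organise membranes, help to reseal torn plasma membrane and take part in budding and fusion. Galectins are lectins that bind beta-galactosides on glycoproteins. They lack a signal peptide and leave cells by unconventional routes, vesicles among them. Both families are regular finds in protein lists of exosomes, and phosphatidylserine on the outer face of vesicles is what labelled annexin A5 is used to detect. The libraries here measured RNA and not protein.

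The gene counts of a library summed to 5350295 and 5355098 in MSC-Exo and to 5947020 and 5598378 in MSCATV-Exo. Together the 8 genes held 1498 and 1836 of the MSC-Exo counts and 2004 and 1940 of the MSCATV-Exo counts, which was 0.0280% to 0.0347% of a library's gene counts. Reads lay on most annotated genes, also on genes of other tissues: the 1188 olfactory receptor genes had a median level of 1.71 to 2.47 RPKM (reads scaled by gene length and by the library's gene counts) in the 4 libraries, and protein-coding genes a median of 4.12 to 4.74. Levels are therefore set beside the olfactory receptor genes, 95% of which had a mean under 7.24 RPKM. Of 9 MSC markers, 5 stood above that level, led by Vim and Col1a1, and Col1a2 was listed at 0 counts in every library. Its partner chain Col1a1 had 895 to 1307 counts and 2990 genes were listed at 0 throughout, so this 0 is not read as a level. Of 11 leukocyte markers 1 stood above it (Lyz2) and none was at 0 in all libraries. Their summed level, mostly of genes within the olfactory receptor range, was 57.1 and 58.7 RPKM in MSC-Exo against 39.5 and 38.1 in MSCATV-Exo. Of the 10 tested between the groups, 8 were lower in MSCATV-Exo and 2, Lyz2 and Itgam, were higher. None was called by edgeR or DESeq2, the tests given below. The olfactory receptor median was lower in MSCATV-Exo as well (2.47 and 2.36 RPKM in MSC-Exo against 1.71 and 2.28). Endothelial markers summed to 27.3 and 30.0 RPKM against 21.8 and 25.6, while the sums of MSC, erythroid and other-tissue markers overlapped between the groups. The part of this background in the leukocyte sum was not tested. Leukocytes also use Anxa1 and Lgals3, and the part of the leukocyte difference in the values below was not tested. In bulk samples, vesicles of fewer cells of a type and less RNA per cell cannot be told apart.

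Lgals1 and Anxa2 stood far above the other members, 4 more lay above nearly all olfactory receptor genes, and Anxa7 and Anxa4 lay among them. Lgals1 encodes galectin-1, a small secreted lectin that is abundant in stromal cells (chromosome 7, 120153184 to 120156290, plus strand, rn6). It was at 184 and 244 RPKM in MSC-Exo, against 225 and 248 in MSCATV-Exo. Its mean of 225 RPKM was 82.7 times the olfactory receptor median and above 99.9% of protein-coding genes. Anxa2, whose protein joins with S100a10 in a complex at the plasma membrane and endosomes (chromosome 8, 75687134 to 75723589, plus strand), was at 43.5 and 58.7 RPKM in MSC-Exo, against 52.1 and 59.3 in MSCATV-Exo. MSC-Exo replicate 1 was the lowest library for both genes, and the other 3 libraries lay close together. The RPKM ranges of Lgals1 and Anxa2 did not overlap each other or that of any other member.

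Anxa6, a larger annexin of the endosomal and plasma membrane (chromosome 10, 40320581 to 40375605, minus strand), was at 17.3 and 14.9 RPKM in MSC-Exo, against 15.96 and 20.6 in MSCATV-Exo. Anxa5, the phosphatidylserine binder used as a probe for dying cells (chromosome 2, 123162477 to 123194730, minus strand), was at 10.4 and 15.8 RPKM in MSC-Exo, against 20.7 and 12.6 in MSCATV-Exo. Their ranges overlapped, and each was the higher of the pair in 2 of 4 libraries. None of the 1188 olfactory receptor genes reached the mean of either (17.2 and 14.9 RPKM).

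Lgals3 encodes galectin-3, a galectin with a long N-terminal domain that lets it form oligomers (chromosome 15, 24153602 to 24165537, plus strand). It was at 4.53 and 12.6 RPKM in MSC-Exo, against 9.22 and 9.42 in MSCATV-Exo, so 1 MSC-Exo library was the lowest of all and the other the highest. Anxa1, a phospholipid binder known as an anti-inflammatory mediator that glucocorticoids induce (chromosome 1, 237893983 to 237910002, minus strand), was the steadiest member at 8.49 and 8.48 RPKM in MSC-Exo, against 9.57 and 9.04 in MSCATV-Exo. The means of Lgals3 and Anxa1 (8.95 and 8.90 RPKM) were equalled or passed by 29 and 31 olfactory receptor genes (2.44% and 2.61%).

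Anxa7, a calcium-dependent membrane fusion protein first described as synexin (chromosome 15, 4254470 to 4281296, plus strand), was at 3.81 and 9.09 RPKM in MSC-Exo, against 6.70 and 5.06 in MSCATV-Exo. Anxa4, an annexin of epithelial and other membranes (chromosome 4, 118538775 to 118595591, minus strand), was at 7.48 and 3.25 RPKM in MSC-Exo, against 5.71 and 3.26 in MSCATV-Exo. Of the olfactory receptor genes, 111 (9.34%) had a mean at or above that of Anxa7 and 220 (18.5%) at or above that of Anxa4, which at 4.92 RPKM stood next to the protein-coding median of 4.76. For these genes the level does not separate from that of genes of another tissue. From Anxa6 downwards, each member's range overlapped that of the next in order.

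**Figure D1:**
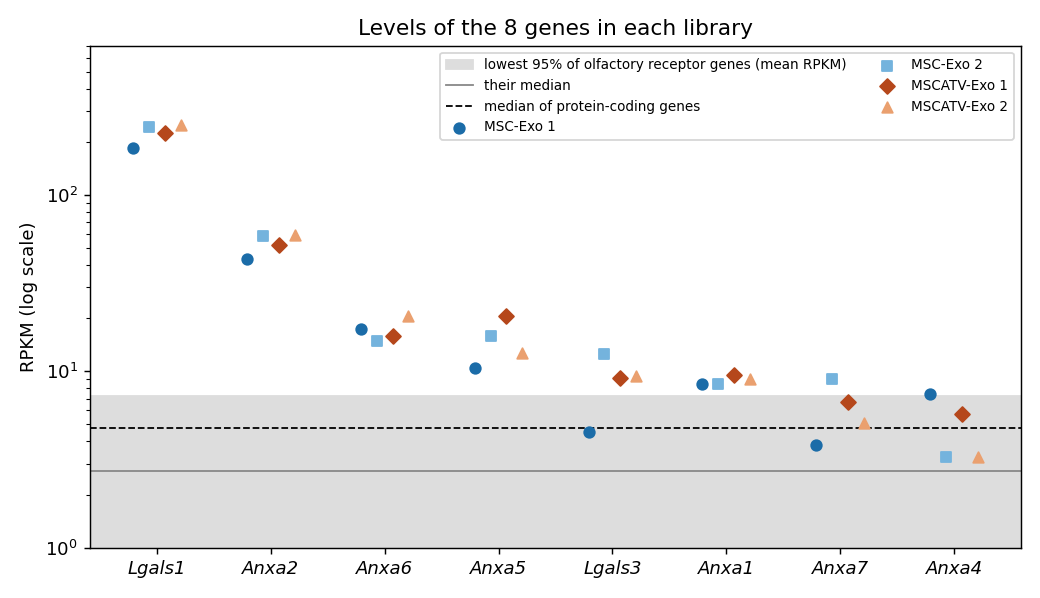
Level of each of the 8 genes in RPKM (log axis) in the 4 libraries, in order of the mean; each point is 1 library. The grey band, cut at the lower edge of the axis, holds the lowest 95% of olfactory receptor genes by mean RPKM, the grey line is their median and the dashed line the median of protein-coding genes. Lgals1 (184 to 248 RPKM) and Anxa2 (43.5 to 59.3) lie clear of all other members, and Anxa7 and Anxa4 fall largely within the band.

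None of the 8 genes passed the test between the groups. In edgeR's quasi-likelihood test, with Benjamini-Hochberg adjustment over all tested genes, 0 of the 8 passed an adjusted p of 0.05 (each had an adjusted p of 1.00), against 0% of all 33480 genes, of which 1236 had an unadjusted p under that threshold; of the 8 none had. DESeq2 called 106 genes, or 0.329% of those it gave an adjusted p, and no member (smallest adjusted p = 0.887, for Lgals1). A q-value under 0.05 is given to 34.3% of the genes in the authors' deposited table, and to none of the 8. The lowest of the 8 in the authors' deposited table is that of Anxa5, at 0.0958 with a p-value of 0.0397.

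The log2 fold change of MSCATV-Exo over MSC-Exo was above 0 for 6 of the 8 members, where 49.4% of all tested genes were above 0, and the median was 0.23 beside -0.01 over all genes. Without a composition factor, on total counts alone, the median over all genes was -0.11 and that of the members 0.13, with the same 6 above 0. Lgals1 averaged 105 ± 21.8 normalised CPM (counts after TMM scaling of the library totals; SD, n = 2) in MSC-Exo. The MSCATV-Exo mean was 125 ± 0.894 CPM, and the log2 fold change was 0.24 ± 0.24 (SE). Anxa2 averaged 66.3 ± 14.6 against 77.5 ± 2.40 CPM, a log2 fold change of 0.22 ± 0.27 (SE). For both, the gap between the MSC-Exo libraries was larger than the gap between the groups: the higher MSC-Exo library was 1.34 times the lower for Lgals1 and 1.37 times for Anxa2, while the group means stood 1.18 and 1.17 times apart. Without MSC-Exo replicate 1 the log2 fold change was 0.04 for Lgals1 and 0.01 for Anxa2, and without MSC-Exo replicate 2 it was 0.47 for both.

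Anxa1 averaged 30.1 ± 0.295 against 35.5 ± 3.59 CPM (log2 fold change 0.24 ± 0.32, SE) and Anxa6 44.6 ± 4.18 against 54.2 ± 6.53 CPM (0.28 ± 0.29, SE). In normalised CPM these were the 2 members whose group means stood further apart than the libraries within either group. In the deposited RPKM the groups of Anxa6 overlapped. The log2 fold change of both stayed above 0 with each library left out in turn (0.13 to 0.34 for Anxa1 and 0.16 to 0.40 for Anxa6). Among all tested genes, the libraries of 1 group stood further apart than the group means for 80.7%, against 6 of the 8 members. Anxa5 had the highest log2 fold change of the 8, 0.46 ± 0.42 (SE), with 22.2 ± 6.63 against 30.6 ± 12.2 CPM. It rested on MSCATV-Exo replicate 1, the highest library, without which the log2 fold change was -0.01.

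The 3 members of lowest counts gave no stable direction. Lgals3 counts were 23 and 64 (MSC-Exo) against 52 and 50 (MSCATV-Exo). The log2 fold change of Lgals3 was 0.22 ± 0.74 (SE), and it became -0.35 without MSC-Exo replicate 1 and 1.15 without MSC-Exo replicate 2. Anxa7 counts were 46 and 110 against 90 and 64 (-0.02 ± 0.58, SE), and with 1 library left out it ranged from -0.53 without MSC-Exo replicate 1 to 0.75 without MSC-Exo replicate 2. Anxa4 had 92 and 40 counts against 78 and 42 (-0.13 ± 0.65, SE), from -0.67 without MSCATV-Exo replicate 1 to 0.57 without MSC-Exo replicate 1. For each of the 3, the MSC-Exo pair enclosed both MSCATV-Exo libraries.

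**Figure D2:**
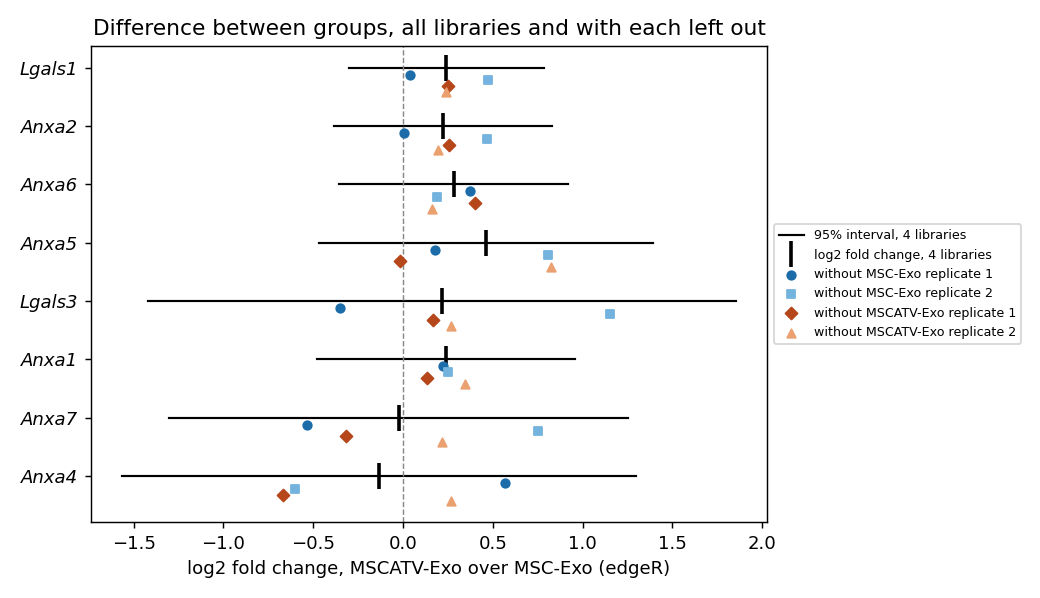
Log2 fold change of MSCATV-Exo over MSC-Exo by edgeR for each gene (vertical tick) with its 95% interval (line), and the same with 1 library left out (points, set below the line). All 8 intervals include 0, and points of Anxa5, Lgals3, Anxa7 and Anxa4 lie on both sides of it.

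The intervals give the folds that remain compatible with these libraries. The 95% interval of the fold between groups ran from 0.813 to 1.72 for Lgals1, from 0.768 to 1.78 for Anxa2, from 0.782 to 1.89 for Anxa6 and from 0.717 to 1.94 for Anxa1. It was wider for Anxa5 (0.723 to 2.63), Anxa7 (0.406 to 2.38), Anxa4 (0.337 to 2.46) and Lgals3 (0.374 to 3.62). Each interval includes no change, and with 2 libraries a group both that and the other folds inside it remain compatible with the data. The intervals are not adjusted for the number of genes tested.

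Poisson intervals of the replicates lay apart for some members and not for others. Within MSC-Exo the 95% Poisson intervals of the 2 libraries, compared on the RPKM scale, lay apart for 6 of the 8 members (all but Anxa1 and Anxa6). For Lgals3, 23 counts gave an interval of 14.6 to 34.5 and 64 counts one of 49.3 to 81.7. For Lgals1, 499 counts gave 456 to 545 and 661 counts 612 to 713. Within MSCATV-Exo they lay apart for 3 members, Anxa4, Anxa5 and Anxa6, and overlapped for the other 5. Such intervals hold counting error and nothing else, and they take each read as an independent molecule. Reads that carry no molecular identifier need not be that, so the intervals may be too narrow.

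Whether the groups overlapped depended on the scale. In normalised CPM both MSCATV-Exo libraries were above both MSC-Exo libraries for 3 of the 8 (Anxa1, Anxa6 and Lgals1) and below both for 0. Of all 33480 tested genes, 33.5% had groups that did not overlap in either direction, 5383 with MSCATV-Exo above and 5840 with it below. In the deposited RPKM, which has no composition factor, the groups were apart for 1 of the 8 (Anxa1), beside 33.7% of all tested genes. Counted in either direction, both shares of the members are near or below the background. The 3 members apart in normalised CPM all had MSCATV-Exo above, which in RPKM held for Anxa1 alone. Among the 7766 tested genes of at least 20 CPM, 1455 had MSCATV-Exo above and 1210 had it below. No direction of the members is read from 3 genes.

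Lgals1 and Anxa2 kept nearly the same ratio in every library. Per kilobase, Lgals1 was 4.24 and 4.16 times Anxa2 in MSC-Exo, against 4.32 and 4.18 times in MSCATV-Exo, while the highest RPKM of Lgals1 was 1.34 times its lowest and that of Anxa2 1.36 times its lowest. After each gene's log2 CPM was centred on its own mean over the 4 libraries, the root mean square difference of the pair was 0.0214. Among the 7765 other genes of at least 20 CPM, Anxa2 was the second nearest to Lgals1, after Atp4a (0.0169) and before Ciita (0.0243). Nearest to Anxa2 were the receptor gene Notch3 (0.00574), Ciita (0.00789), which encodes a regulator of MHC class II genes, and Olr287 (0.0105), with Lgals1 at rank 5. Olr287 is an olfactory receptor gene, at 6.18 to 8.60 RPKM, and Atp4a encodes a proton pump subunit of the stomach, so genes of other tissues followed the same pattern over these 4 libraries. The other members were further off, and from Lgals1 Anxa1 was at rank 788, Anxa6 at 1883 and Anxa5 at 3568.

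**Figure D3:**
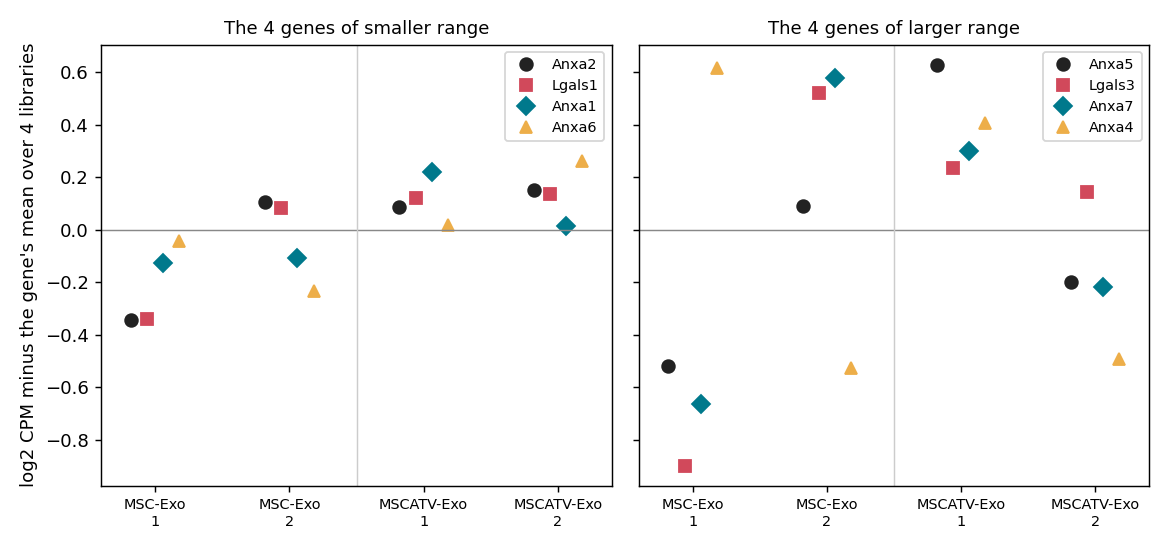
Log2 CPM of each gene minus its own mean over the 4 libraries, with 1 point per library and the genes split into those of smaller range (left) and larger range (right). Lgals1 and Anxa2 lie side by side in all 4 libraries, and MSC-Exo replicate 1 holds the lowest points of Lgals1, Anxa1, Anxa2, Anxa5, Anxa7 and Lgals3 and the highest of Anxa4.

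The means of the other 6 annexins ran from 1.41 RPKM (Anxa10) to 6.62 (Anxa9), and those of Anxa9 and Anxa11 (6.20) stood just above that of Anxa7 (6.16). None of Anxa3, Anxa8, Anxa9, Anxa10, Anxa11 and Anxa13 had a mean above 7.24 RPKM, under which 95% of olfactory receptor genes lay. Among the annexins of the 8 members, Anxa1, Anxa2, Anxa5 and Anxa6 did, and Anxa4 and Anxa7 did not. Anxa11, whose protein like that of Anxa7 binds the calcium sensor ALG-2 (Pdcd6), was at 4.802 and 7.51 RPKM in MSC-Exo, against 7.18 and 5.33 in MSCATV-Exo. Of these 6 genes 3 had a log2 fold change above 0 and 3 below (median -0.48). Anxa3 was at 0.73 ± 0.52 (SE; 47 and 70 counts against 92 and 104), Anxa9 at 0.09 ± 0.56 and Anxa11 at 0.13 ± 0.51. Anxa8 was at -1.04 ± 0.61 (97 and 67 counts against 31 and 49) and Anxa13 at -1.42 ± 0.71 (87 and 52 against 20 and 32). None was called by edgeR or DESeq2, although the groups of Anxa3, Anxa8, Anxa10 and Anxa13 did not overlap in normalised CPM, as for 33.5% of all tested genes.

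Among other galectins and their relatives, 3 of 9 stood above the olfactory receptor level. The highest was Lgals3bp, a secreted glycoprotein that galectin-3 binds, at a mean of 10.5 RPKM, with 91, 149, 79 and 179 counts in MSC-Exo 1 and 2 and MSCATV-Exo 1 and 2 and 0.09 ± 0.48 (SE) on the log2 scale. Lgals9, a galectin with 2 carbohydrate-binding domains, had a mean of 9.76 RPKM (-0.30 ± 0.51) and Lgals4 one of 7.54 (0.22 ± 0.65). In the list 6 members were above 0 and 3 below, with a median of 0.22 and none called. Lgals12 was at -0.65 ± 0.34 (203 and 198 counts against 119 and 138), Lgals8 at -1.01 ± 0.62, Lgalsl at 0.85 ± 0.53, Lgals7 at 1.28 ± 1.00 and Lgals2, with 15, 16, 14 and 37 counts, at 0.70 (SE 1.203).

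S100 proteins are small EF-hand proteins, several of which bind annexins, and 4 of those listed had a higher mean RPKM than Anxa2. S100a11, the partner of annexin A1, was at 208 and 215 RPKM in MSC-Exo, against 163 and 200 in MSCATV-Exo. S100a10, the partner of annexin A2, was at 79.3 and 93.5 RPKM in MSC-Exo, against 85.7 and 85.7 in MSCATV-Exo, above Anxa2 in each library. S100a4 and S100a6 had means of 106 and 68.2 RPKM. Of the 8 S100 genes 7 were tested, 4 above 0 and 3 below (median 0.07), and none was called: S100a6 was at 0.52 ± 0.40 (SE), S100a1 at 0.12 ± 1.22, S100a10 at 0.09 ± 0.29, S100a4 at 0.07 ± 0.30, S100a11 at -0.12 ± 0.23, S100a16 at -0.56 ± 0.60 and S100b at -0.94 ± 0.70.

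**Figure D4:**
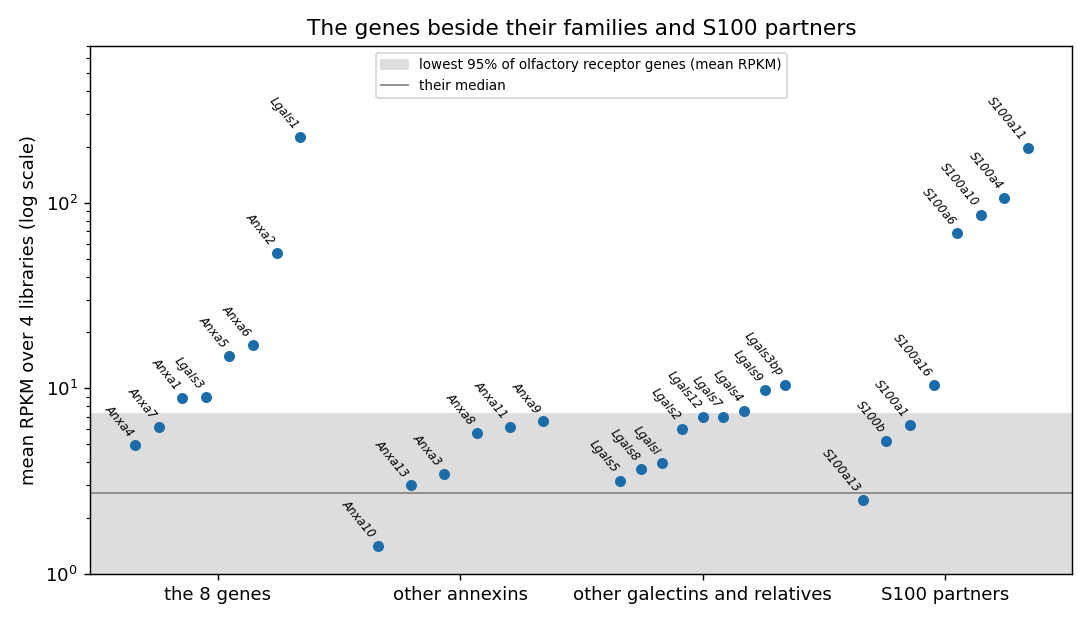
Mean RPKM over the 4 libraries (log axis) of the 8 genes, of the other annexins, of other galectins and relatives and of S100 partners; each point is 1 gene. The grey band, cut at the lower edge of the axis, holds the lowest 95% of olfactory receptor genes and the line is their median. All other annexins lie within the band, while Lgals1 (225 RPKM) and S100a11 (197 RPKM) are the highest genes shown.

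Receptors and partners of the 2 families were split in direction. Of 10 tested receptors and glycan ligands, 5 were above 0 and 5 below (median 0.05). The highest in level were Itgb1, an integrin chain that galectin-1 binds, at 0.32 ± 0.23 (SE) with a mean of 31.2 RPKM, and Bsg, the membrane glycoprotein basigin, at 0.62 ± 0.35 with 17.4 RPKM. The formyl peptide receptor Fpr2, through which annexin A1 acts, was listed at 0 counts in all 4 libraries. As for Col1a2, whether reads on it could be counted was not tested, so no level is read from it. Of 10 genes of phosphatidylserine exposure and bridging, 4 were above 0 and 6 below (median -0.15), with Axl, a receptor tyrosine kinase that takes up phosphatidylserine-bearing bodies through Gas6, at -0.28 ± 0.38 and Mfge8, a secreted phosphatidylserine binder of exosomes, at 0.52 ± 0.44. Of 9 partners in membrane repair and budding, 6 were above 0 and 3 below (median 0.13), with Ahnak, a scaffold that binds the complex of annexin A2 and S100a10, at 0.34 ± 0.19 and the protease gene Capn2 at 0.13 ± 0.32. By edgeR and DESeq2 on all 4 libraries, no gene of these lists was called.

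Reads of some members could be shared with copies or neighbours, and the counting rule for such reads is not given in the sources used here. The pseudogene Anxa2-ps1 had 41 and 50 counts against 47 and 44, far fewer than Anxa2 with 311 and 420 against 414 and 444. A galectin-1-like pseudogene, LOC102546873, had 42 and 20 counts against 26 and 20. Anxa7 has 4 annotated pseudogene copies in the table, and 1 of them, LOC102552140, had 41 and 55 counts against 124 and 48, fewer than Anxa7 in 3 libraries and more in MSCATV-Exo replicate 1. With the counts of each gene and its copies summed, the log2 fold change was 0.20 ± 0.27 (SE) for Anxa2, 0.22 ± 0.24 for Lgals1 and 0.13 ± 0.36 for Anxa7, the last with its sign turned. Anxa6 was the member with other annotated features inside it. LOC100362400 on the opposite strand had 16 and 38 counts against 0 and 12, and the library kit named in the labels does not mark strand.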

How the data were processed

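For each of the 4 libraries the deposited gene table holds whole-number read counts and RPKM values from the authors, per the file headers. TopHat2 and the rat builds rn6 and Rnor_6.0 are named in the submitters' processing notes; the read counter and annotation release are not given in the sources used here. RPKM recomputed from counts, lengths and the summed gene counts matched the deposited values. The authors' deposited comparison table gives mean RPKM per group, log2 ratios of those means, p-values and q-values, per the file headers, with no test named. Genes are named and placed by the deposited table, and mouse reference tables were left unused.

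The two-sided quasi-likelihood test of edgeR 4.0.16 (R 4.3.3) was run on the counts after filterByExpr and TMM scaling, with p-values adjusted over all 33480 tested genes. The common biological coefficient of variation, edgeR's name for the spread between libraries as 1 value over all tested genes, was 0.559. It is not the spread of the members, and the spread it measures may be technical. The SE and 95% interval of a log2 fold change come from that fit. The test was checked on simulated data. Other settings were RLE factors, total counts, DESeq2 1.42.0, other filters, the replicate number as a block, each library left out, and limma 3.58.1 on log2(RPKM + 1) and log2(RPKM + 0.1). Genes beside the 8 were named by list: all tested members with a mean of at least 20 counts for other annexins, other galectins and S100 partners, and the 2 of highest mean RPKM for other lists; Anxa10, Fpr2, the copies and the marker genes were named beyond that rule. The 8 genes and all lists were chosen with earlier results of these data known. Erythroid, endothelial and other-tissue markers had 1 of 4, 0 of 5 and 4 of 8 members above the level that bounds 95% of olfactory receptor genes. Non-coding transcript tables were not used.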

Additional observations from a re-analysis of the deposited data

How the results depend on the processing

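No member was called in any of 17 fits (smallest adjusted p = 0.582, for Anxa5 without MSCATV-Exo replicate 2). The count of called genes, 0 by edgeR, was 106 with DESeq2, 8 with no filter on low counts, 1 among genes above 3 times the olfactory receptor median, and 1 to 168 with a library left out: leaving out MSC-Exo replicate 1 gave 1 and replicate 2 of that group 2, while MSCATV-Exo replicate 1 gave 27 and its replicate 2 gave 168, where the lone library is taken to vary like the pair. The cause was not tested. With the replicate number as a block it was 4, and the log2 fold change of Anxa7 was 0.0777 in place of -0.02. Deviations of same-numbered libraries were uncorrelated (-0.000516 over all tested genes), so the numbers are not taken to pair the samples. Summing copies, chosen after seeing the data, turned Anxa7 to 0.13. Leaving out 1 library turned Anxa4 (-0.67 to 0.57; 0.27 without MSCATV-Exo replicate 2), Anxa5 (-0.0146 to 0.83), Anxa7 (-0.53 to 0.75; 0.22 without MSCATV-Exo replicate 2) and Lgals3 (-0.35 to 1.15). Anxa1, Anxa2, Anxa6 and Lgals1 kept their direction in all 16 alternatives. The members' median log2 fold change was 0.13 to 0.25 in the alternatives on 4 libraries and 0.11 to 0.47 with a library left out. The filter above 3 times the olfactory receptor median removed Anxa4 and Anxa7. Lgals3, Anxa7 and Anxa4 had 23 to 110 counts in a library.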
